A study of Mus musculus with 8 samples.

Results

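The genes described here encode the nuclear subunits of respiratory complexes II to V and the electron carrier cytochrome c. They were taken from the table of 39527 genes by name. Protein-coding genes were kept whose symbols begin with Sdha, Sdhb, Sdhc, Sdhd, Uqcr, Atp5, or Cox4 to Cox8 followed by a letter, together with Cyc1 and Cycs. The rule took 53 genes, none of which held a value below 0. Of these, 4 belong to complex II, 9 to complex III, 18 to complex IV and 15 to complex V, and 1 is cytochrome c. The other 6 match by name only: 4 assembly factors of complex II (Sdhaf1 to Sdhaf4), Atp5s and Atp5sl. They are given apart. A level of 1 FPKM (fragments per kilobase, as the authors deposited them) in at least 4 of the 8 libraries was reached by 50 of the 53 genes, 44 of them subunits or cytochrome c, and these entered the test.

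RNA was measured in group 2 innate lymphoid cells (ILC2s) sorted from epididymal visceral fat of male wild-type C57BL/6 mice. The high-fat diet group held 4 libraries, called H1 to H4, and the normal diet group held 4, called N1 to N4. All mice were 14 weeks old and had received their diet for 8 weeks, starting at 6 weeks of age. No transgene, Cre driver or deletion is named in the labels, and the comparison available is that of the diets. The labels do not say that the libraries came from separate animals, so the p-values measure the spread between libraries, which may be technical.

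Complex II (succinate dehydrogenase) passes electrons from succinate to ubiquinone, complex III passes them on to cytochrome c, and complex IV hands them to oxygen. Complexes III and IV pump protons, and complex V (ATP synthase) lets the protons flow back through its membrane ring to drive ATP synthesis in its F1 head. Complex II is encoded wholly in the nucleus, while complexes III, IV and V also hold subunits encoded in mitochondrial DNA. ILC2s in visceral fat are tissue-resident lymphocytes that secrete type 2 cytokines, and the title of the series places them in a study of the kinase LKB1 and mitochondria.

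Nuclear factors known to act on promoters of respiratory genes are NRF1, the ETS factor GABP (NRF2), YY1 and CREB. Promoters were found in RefSeq (mouse build GRCm38.p6) for 42 of the 53 genes, 46 promoters in all, and the 250 bases before each annotated start were searched on both strands. The letters searched were GCGCA and GCGC with 1 base between them for NRF1, CCGGAAG for ETS factors, AAGATGGCG for YY1 and TGACGTCA for CREB. Among the 37 promoters of 34 tested subunit and cytochrome c genes, 7 held the NRF1 letters (18.9%, against 3.74% of all 32851 promoters) and 9 held the ETS letters (24.3%, against 6.91%). The YY1 letters were in 1 (2.7%, against 0.606%) and the CREB letters in 2 (5.41%, against 1.55%). A match describes the letters only, and a window without one says nothing about the factor. The windows shown here, 4 in all, were chosen after values were seen. Uqcr11, Atp5l and Cycs are the genes with the lowest p-values among those whose diets did not overlap, and Cox6a1 is the most expressed gene whose window held both the NRF1 and the ETS letters. Of the 5 genes whose diets did not overlap, 3 held any of these letters, while Cox5b and Atp5d held none. All 4 genes shown lie on the minus strand, and capitals mark the motif letters.
Uqcr11 (chr10:80406822-80407071): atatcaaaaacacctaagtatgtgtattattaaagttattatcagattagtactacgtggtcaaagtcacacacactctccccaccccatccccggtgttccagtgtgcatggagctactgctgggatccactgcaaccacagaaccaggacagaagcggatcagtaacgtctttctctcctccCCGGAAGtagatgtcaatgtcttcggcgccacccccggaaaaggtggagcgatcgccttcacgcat
Atp5l (chr9:44920743-44920992): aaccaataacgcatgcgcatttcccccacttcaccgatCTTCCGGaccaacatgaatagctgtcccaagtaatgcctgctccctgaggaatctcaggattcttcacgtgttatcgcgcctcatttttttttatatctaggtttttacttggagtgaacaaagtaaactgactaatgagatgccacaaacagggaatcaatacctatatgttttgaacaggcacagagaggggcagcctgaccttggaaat
Cycs (chr6:50566570-50566819): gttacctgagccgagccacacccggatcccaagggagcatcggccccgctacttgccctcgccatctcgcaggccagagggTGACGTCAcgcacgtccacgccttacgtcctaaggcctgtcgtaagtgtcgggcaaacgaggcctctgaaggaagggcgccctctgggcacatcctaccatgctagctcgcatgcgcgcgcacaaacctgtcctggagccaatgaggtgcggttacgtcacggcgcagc
Cox6a1 (chr5:115348959-115349208): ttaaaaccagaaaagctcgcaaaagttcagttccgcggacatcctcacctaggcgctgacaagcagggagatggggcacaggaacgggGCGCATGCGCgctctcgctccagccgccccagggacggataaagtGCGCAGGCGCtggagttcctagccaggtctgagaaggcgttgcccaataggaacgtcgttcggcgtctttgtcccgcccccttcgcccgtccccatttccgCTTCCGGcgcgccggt
The ETS letters of Uqcr11 begin 66 bases before the start, and those of Atp5l, read on the opposite strand, 212 bases before it. In Cycs the palindromic CREB letters begin 169 bases before the start. Cox6a1 holds the NRF1 letters at 162 and 117 bases before the start and the ETS letters, on the opposite strand, at 16.

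Each library held 9005363 to 15752815 reads, as recovered from its FPKM values. The fewest were in H2, which also had the most genes at 1 FPKM or more, 13663, against 10763 to 11905 in the other libraries. Levels summed over 10 ILC2 markers were between 6036 and 6643 FPKM in the high-fat libraries and between 7637 and 9448 FPKM in the normal-diet libraries. Of the 10, 3 (Il5, Gata3 and Il2ra) passed the test, all lower on the high-fat diet. Of all tested genes 2.86% passed, 1.88% lower. Fold changes of the markers were below 0 for 8 and above 0 for 2, at most 0.31. The diets did not overlap for 5 of the 10, with 4 of these lower, beside 11.1% and 6.76% of all tested genes. Il5 also passed in all 16 alternative settings, Il2ra in 14 and Gata3 in 5 (adjusted p from 0.00436 to 0.115, limma). Of the markers of other cells, 11 T cell markers summed to 820 to 1604 FPKM in the high-fat libraries and 771 to 1052 FPKM in the normal-diet libraries. The 6 mast cell markers, led by the tryptase Tpsb2, summed to 1699.6 (in H2) to 7788 FPKM in the high-fat libraries and 3715 to 7925 FPKM in the normal-diet libraries. None of the 9 tested T cell markers passed, but all 9 had fold changes above 0, with a median of 0.82 on the log2 scale. They were above 0 in each of the 16 alternative settings too. Up to 3 passed, the most with recovered reads, where 13.1% of all tested genes passed. Of the 6 mast cell markers 4 were below 0 and none passed. The sum of 7 endothelial markers was 17.97 to 38.03 FPKM in high-fat libraries and 13.7 to 19.7 FPKM in normal-diet libraries, and that of 8 macrophage markers 7.84 to 10.2 FPKM in high-fat libraries and 4.33 to 8.05 FPKM in normal-diet libraries. For 5 B cell markers it was 4.14 to 7.79 FPKM in high-fat libraries and 4.77 to 6.21 FPKM in normal-diet libraries, and for 8 adipocyte markers 1.17 to 7.07 FPKM in high-fat libraries and 1.42 to 3.0 FPKM in normal-diet libraries. Of the endothelial markers 2 were tested, both above 0 (median 0.64), and none passed. With recovered reads 1 passed, and without H2 also 1, beside 13.1% and 4.67% of all tested genes. The macrophage markers gave the same counts: 2 were tested, both above 0 (median 0.46), none passed in the main test, and 1 passed in each of these 2 settings. No marker was at 0 in all libraries. The part of these other cells in the values below was not tested, and in bulk samples fewer cells of a type and less RNA per cell cannot be told apart.

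Transcripts of the respiratory subunits were abundant in these cells on both diets, and none passed the test between the diets. The median level over the 8 libraries was 120 FPKM for complex II, 168 FPKM for complex III, 184 FPKM for complex IV and 202 FPKM for complex V, against 9.57 FPKM for all tested genes. Of the 44 tested subunit and cytochrome c genes, 40 lay between 46.9 and 564 FPKM, and the other 4 were isoforms of complex IV known from particular tissues. FPKM are levels per length, so levels may be compared between genes, but only roughly. The deposited values carry a factor that repeats every 10 rows (0.863 to 1.18) and so differs between genes. Between libraries they also carry the deposited scaling. Relative to the recovered read totals its divisor was larger on the high-fat diet, by 0.16 on the log2 scale. A larger divisor gives lower FPKM, so the scaling goes toward fold changes below 0.

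**Figure D1:**
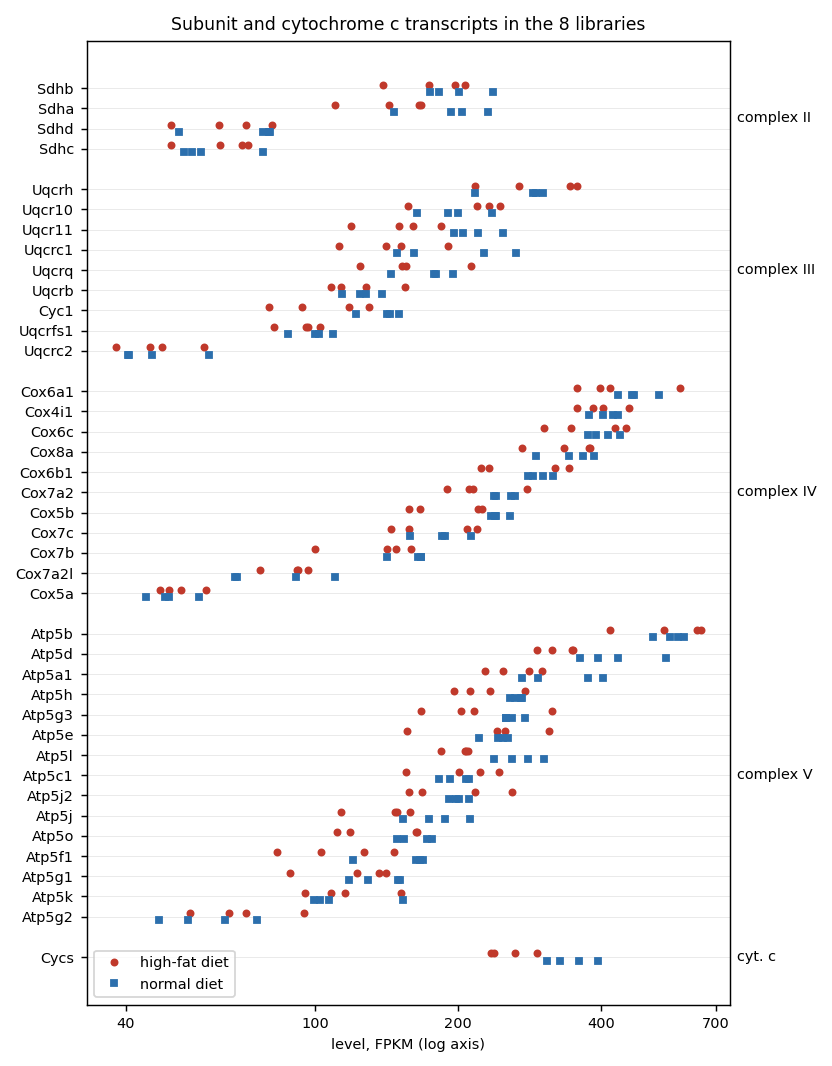
Level (FPKM, log axis) of the 40 subunit and cytochrome c genes with a mean of 10 FPKM or more in each library, grouped by complex and ordered by mean level. Circles are the 4 high-fat libraries and squares the 4 normal-diet libraries; for most genes the symbols of the diets intermix, and for Uqcr11, Cox5b, Atp5l, Atp5d and Cycs all circles lie left of all squares.

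With limma on log2(FPKM + 1) and Benjamini-Hochberg adjustment over all 11483 tested genes, 0 of the 44 genes passed at 0.05, while 2.86% of all tested genes passed (0.975% higher and 1.88% lower on the high-fat diet). At an unadjusted p under 0.05 there were 9 of the 44 genes (20.5%), all lower on the high-fat diet. Of all tested genes it was 18.1%, counted in either direction. Fold changes were below 0, that is lower on the high-fat diet, for 32 genes and above 0 for 12, with a median log2 fold change of -0.12, against -0.02 for all tested genes, 52.1% of which were below 0. High-fat and normal-diet libraries did not overlap for 5 genes (11.4%), all lower on the high-fat diet; 11.1% of all tested genes did not overlap, 6.76% lower and 4.31% higher. For the 40 genes at 10 FPKM or more, the 95% interval of a single gene reached 0.29 to 0.44 to each side on the log2 scale, and no interval passed below -0.85 or above 0.65. A change of 2-fold in either direction thus lay outside the interval of each of these 40 genes.

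**Figure D2:**
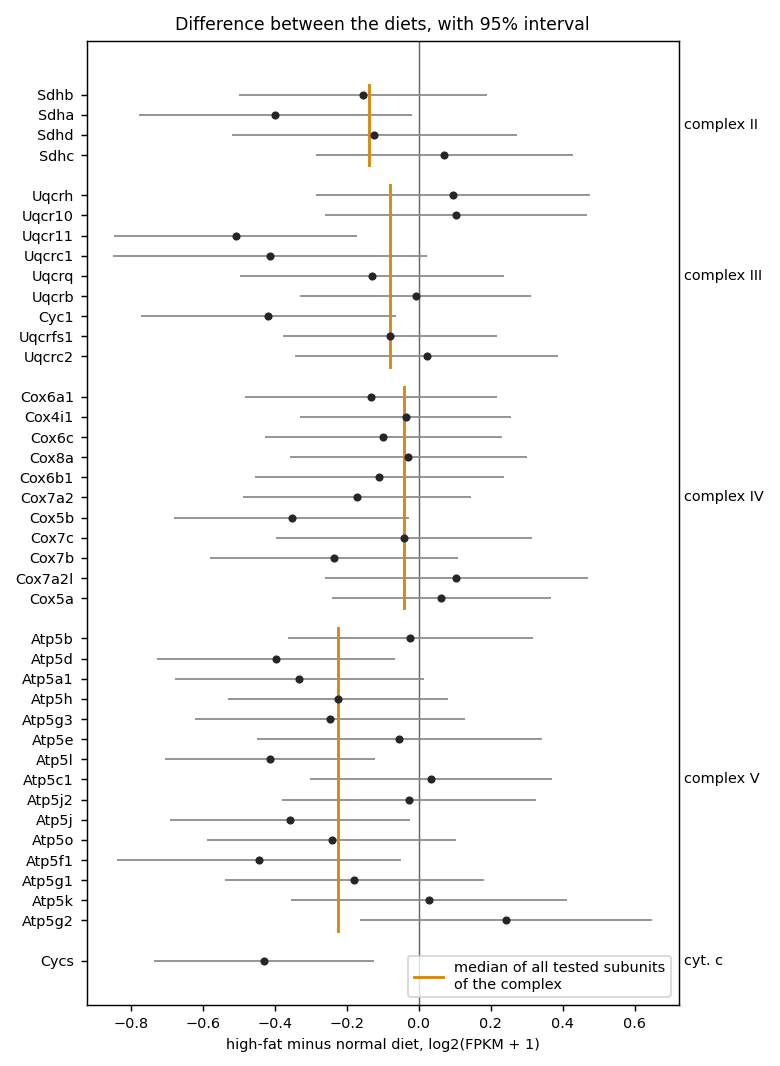
Difference between the diets (high-fat minus normal diet, log2(FPKM + 1)) for the same 40 genes, with the 95% interval of the limma fit. The orange lines are the medians of all tested subunits of a complex, -0.14 for complex II, -0.08 for complex III, -0.04 for complex IV and -0.23 for complex V; 31 of the 40 points lie left of 0.

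Complex II was measured through all 4 of its subunits, and none passed (median log2 fold change -0.14, lowest adjusted p = 0.250, limma). Sdha, the flavoprotein that oxidises succinate, had 166, 110.1, 143 and 168 FPKM in H1 to H4, against 194, 231, 146 and 204 FPKM in N1 to N4. The diets overlapped through N3, and H2 was the lowest library. The log2 fold change was -0.40 (SE 0.18, limma, adjusted p = 0.250). Sdhb, the iron-sulfur subunit that relays the electrons, averaged 179 ± 30.1 FPKM on the high-fat diet and 199 ± 27.7 FPKM on the normal diet (SD, n = 4 each). The membrane anchors stood lower: Sdhc averaged 63.9 ± 10.2 FPKM on the high-fat diet and 60.9 ± 11.3 FPKM on the normal diet, and Sdhd 66.4 ± 13.4 FPKM on the high-fat diet and 72.5 ± 13.9 FPKM on the normal diet. Sdhc was thus the sole subunit of complex II with a fold change above 0 (0.07, 95% interval -0.29 to 0.43). In all 4 genes H2 held the lowest value, and in Sdhd it was followed by N3 at 51.7 FPKM. Without H2 the median of complex II was -0.02, with 2 genes above and 2 below 0.

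In complex III 3 genes stood apart from the rest, while the median of its 9 subunits was -0.08 and none passed. Uqcr11, a small subunit, whose promoter is shown above, had 161, 119, 150.4 and 185 FPKM in H1 to H4, against 205, 249, 196 and 221 FPKM in N1 to N4. All 4 high-fat libraries lay below all 4 normal-diet libraries. The log2 fold change was -0.51 (SE 0.16), a ratio of 0.702 on the log2(FPKM + 1) scale (95% interval 0.555 to 0.888), and the adjusted p was 0.0989 (limma). This call depended on the scaling. Uqcr11 passed at equal library medians (-0.50, adjusted p = 0.0444), with the repeating factor of the deposited values divided out (-0.60, adjusted p = 0.0419) and with limma voom on recovered reads (-0.43, adjusted p = 0.0212). It did not pass in the other settings, and without H2 it stood at -0.40 (adjusted p = 0.151).

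Cyc1 encodes cytochrome c1, the heme protein of complex III from which cytochrome c takes its electron. It had 118, 80.3, 93.9 and 130.2 FPKM in H1 to H4, against 122, 142, 144 and 150.1 FPKM in N1 to N4. The diets overlapped only through H4 and N1. The log2 fold change was -0.42 (SE 0.17, limma, adjusted p = 0.190), and Cyc1 passed only with limma voom on recovered reads (-0.31, adjusted p = 0.0448). Uqcrc1, a core protein of the matrix side, averaged 149 ± 32.3 FPKM on the high-fat diet and 201 ± 55.1 FPKM on the normal diet, and its log2 fold change of -0.41 (adjusted p = 0.302, limma) shrank to -0.14 without H2 and N2.

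The other 6 subunits of complex III had fold changes between -0.13 (Uqcrq, a small subunit) and 0.10. The largest positive values were those of Uqcr10, a small subunit, with 214 ± 39.4 FPKM on the high-fat diet and 198 ± 29.7 FPKM on the normal diet, and of Uqcrh, the hinge protein that contacts cytochrome c1, with 297 ± 65.4 FPKM on the high-fat diet and 275 ± 38.9 FPKM on the normal diet. Uqcrh was the most expressed gene of the complex and Uqcrc2, the second core protein, the least, at 47.2 ± 8.43 FPKM on the high-fat diet and 46.6 ± 9.19 FPKM on the normal diet. The Rieske iron-sulfur protein Uqcrfs1 averaged 94.3 ± 8.78 FPKM on the high-fat diet and 99.8 ± 8.82 FPKM on the normal diet, and its interval of -0.38 to 0.22 was the narrowest of the complex.

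Complex IV had a median of -0.04 over 15 tested subunits, 10 below and 5 above 0, and none passed. Its most expressed subunits were Cox6a1, with 440 ± 101 FPKM on the high-fat diet and 475 ± 40.5 FPKM on the normal diet, and Cox4i1, the largest nuclear subunit, with 401 ± 43.7 FPKM on the high-fat diet and 410 ± 25.1 FPKM on the normal diet. Cox6c, which lies in the membrane domain, averaged 382 ± 69.1 FPKM on the high-fat diet and 405 ± 27.8 FPKM on the normal diet, and Cox8a, a small membrane subunit, 341 ± 49.9 FPKM on the high-fat diet and 347 ± 40.9 FPKM on the normal diet. The fold changes of these 4 genes ran from -0.13 to -0.03, and that of Cox4i1 had an interval of -0.33 to 0.26. Quantile normalization placed Cox6a1 at 0.03 and Cox4i1 at 0.11, so the sign of these small differences depended on the scaling.

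Cox5b, the zinc-binding subunit that faces the matrix, had 221, 158, 167 and 225 FPKM in H1 to H4, against 239.6, 258, 235 and 241 FPKM in N1 to N4. The diets did not overlap, with H1 and H4 close below N3 and with H2 and H3 far below. Cox5b had a log2 fold change of -0.35 (SE 0.15, limma, adjusted p = 0.232), and it was -0.26 without H2. The other subunits at 10 FPKM or more (Cox5a, Cox6b1, Cox7a2, Cox7a2l, Cox7b and Cox7c) had fold changes from -0.24 to 0.10, with their diets overlapping. Cox7a2l, known as a factor of respiratory supercomplexes and present in a shortened form in C57BL/6 mice, averaged 89.4 ± 8.75 FPKM on the high-fat diet and 84.5 ± 20.2 FPKM on the normal diet.

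In 4 isoform sets of complex IV the ubiquitous isoform held nearly all of the summed level in every library. Cox4i1 made up 98.3% to 99.6% of the summed FPKM with Cox4i2, Cox6b1 99.2% to 99.9% of that with Cox6b2, Cox7b 98.02% to 99.8% of that with Cox7b2, and Cox8a 97.9% to 99.95% of that with Cox8b and Cox8c. The Cox7a set was divided: Cox7a2 held 69.2% to 77.8% of the Cox7a sum, Cox7a2l 21.9% to 30.2% and Cox7a1, the isoform of heart and skeletal muscle, at most 0.609%. The low isoforms rested on few reads. Cox4i2, known as a lung and hypoxia-responsive isoform, had 2.07, 1.48, 1.83 and 1.53 FPKM in H1 to H4. It had 2.57, 7.12, 1.86 and 2.15 FPKM in N1 to N4, and its recovered reads were 20 to 98 per library. The normal-diet mean was carried by N2, the diets overlapped only through H1, and the log2 fold change of -0.57 (adjusted p = 0.311, limma) was -0.18 without H2 and N2.

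The other low isoforms gave no order of the diets. Cox8c and Cox6b2, known from testis, had the largest positive fold changes of the complex, 0.33 and 0.33, with intervals of -1.04 to 1.71 and -0.24 to 0.89. Cox8c had 0.198, 5.29, 3.796 and 0.154 FPKM in H1 to H4, against 1.65, 0.188, 1.48 and 1.116 FPKM in N1 to N4. Its high-fat libraries were split, H2 and H3 above all normal-diet libraries and H1 and H4 close to N2, the lowest of them. Cox7a1 averaged 1.32 ± 0.595 FPKM on the high-fat diet and 1.34 ± 0.730 FPKM on the normal diet. The 3 genes that did not enter the test were all of complex IV. The testis isoform Cox7b2 had 0.716 to 2.02 FPKM in the high-fat libraries and 0.274 to 1.70 FPKM in the normal-diet libraries. The muscle and brown fat isoform Cox8b was listed at 0 in H1 and in all normal-diet libraries. It had 0.624, 0.942 and 0.443 FPKM in H2, H3 and H4, from at most 4 recovered reads. The muscle isoform Cox6a2 had 0.370 FPKM, 2 recovered reads, in H1 and was listed at 0 in the other 7 libraries.

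Complex V had the lowest median of the 4 complexes, -0.23 over 15 subunits, 12 below and 3 above 0, and none passed (lowest adjusted p = 0.120, limma). Within its F1 head the fold changes varied from subunit to subunit, and differences between subunits were not tested. Atp5b, the catalytic beta subunit and the most expressed gene of all members, had 638, 418, 544 and 650.2 FPKM in H1 to H4, against 582, 516, 561 and 600.1 FPKM in N1 to N4. The high-fat libraries spread to both sides of the normal-diet libraries, and the log2 fold change was -0.02 (interval -0.36 to 0.32), or 0.11 without H2. Atp5a1, the alpha subunit that alternates with beta in the head, averaged 265 ± 32.5 FPKM on the high-fat diet and 337 ± 62.9 FPKM on the normal diet (-0.33, limma, adjusted p = 0.296). The ratio of Atp5b to Atp5a1 was 2.12 ± 0.33 on the high-fat diet and 1.72 ± 0.34 on the normal diet, with overlapping libraries. The repeating factor adds 0.06 to the log2 fold change of Atp5b and -0.06 to that of Atp5a1. It was not divided out of the ratio. Atp5c1, the gamma subunit of the rotating stalk, averaged 206 ± 38.03 FPKM on the high-fat diet and 199 ± 13.2 FPKM on the normal diet and had the second largest positive fold change of the complex, 0.03 (interval -0.30 to 0.37).

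Atp5d, the delta subunit of the stalk, had 348, 294, 316 and 349 FPKM in H1 to H4, against 394, 435, 361 and 549 FPKM in N1 to N4. The diets did not overlap, and N4 was far above the other normal-diet libraries. The log2 fold change was -0.40 (SE 0.15, limma, adjusted p = 0.184), and -0.35 without H2. Atp5e, the epsilon subunit that sits beside it, was at 240.2 ± 64.2 FPKM on the high-fat diet and 242 ± 14.4 FPKM on the normal diet.

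In the membrane part and the outer stalk of complex V, Atp5l and Atp5f1 had the lowest fold changes. Atp5l, subunit g, which helps ATP synthase form dimers, had 208, 210.0, 207 and 185 FPKM in H1 to H4, against 282, 304, 238 and 259.7 FPKM in N1 to N4. The high-fat libraries lay close together and all below the normal-diet libraries. The log2 fold change was -0.41 (SE 0.14, limma, adjusted p = 0.120), and it was -0.43 without H2. Atp5f1, subunit b of the outer stalk, had 147, 83.3, 103 and 127 FPKM in H1 to H4, against 164, 169, 120.4 and 166 FPKM in N1 to N4. Here N3 lay among the high-fat libraries, H2 was lowest, and the log2 fold change of -0.44 (adjusted p = 0.213, limma) was -0.30 without H2. Atp5h, subunit d, averaged 229.7 ± 35.1 FPKM on the high-fat diet and 267 ± 7.26 FPKM on the normal diet. Of the other outer and membrane subunits, Atp5j (F6, -0.36), Atp5o (OSCP, -0.24), Atp5j2 (f, -0.03) and Atp5k (e, 0.03) had overlapping diets. Atp5j shares 12.7% of its exon bases with exons of Gabpa, which is read from the opposite strand and encodes the DNA-binding subunit of the ETS factor GABP. The libraries do not mark the strand, so reads in that stretch cannot be told apart; Gabpa itself had 8.70 to 13.7 FPKM in the high-fat libraries and 9.53 to 14.3 FPKM in the normal-diet libraries. Exons of other genes on the opposite strand also covered over 10% of the exon bases of Uqcrc2, Cox5a and Atp5o, which makes 4 of the 44 tested subunits with Atp5j.

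**Figure D3:**
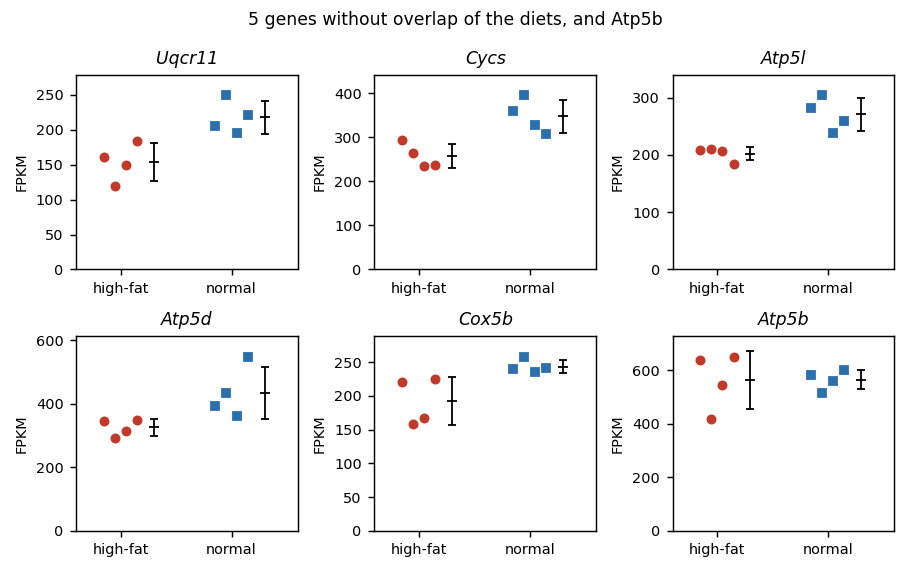
FPKM in each library for the 5 genes whose diets did not overlap (Uqcr11, Cycs, Atp5l, Atp5d and Cox5b) and for Atp5b, the most expressed member. Points are libraries in the order 1 to 4, high-fat left and normal diet right, with the mean and SD (n = 4) beside them; in the first 5 panels every high-fat point is below every normal-diet point, and in the Atp5b panel the high-fat points lie on both sides of the normal-diet points.

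Subunit c forms the rotor ring of complex V and is encoded by 3 genes, Atp5g1, Atp5g2 and Atp5g3, whose products differ in the import sequence and give the same mature protein. Atp5g3 held most of their summed level, 53.5 ± 2.79% on the high-fat diet and 56.9 ± 2.89% on the normal diet. Atp5g1 held 29.4 ± 2.99% on the high-fat diet and 29.9 ± 2.96% on the normal diet. The share of Atp5g2 was 17.2%, 17.5%, 16.9% and 16.9% in H1 to H4, against 16.9%, 11.8%, 10.3% and 13.6% in N1 to N4. The high-fat shares lay within a narrow range, N2 to N4 were below it, and N1 fell inside it. The repeating factor was not divided out of the shares. It adds -0.08 to the log2 fold change of Atp5g2, 0.05 to that of Atp5g1 and -0.03 to that of Atp5g3. Atp5g2 had the largest positive fold change of the complex, 0.24 (SE 0.19, limma, adjusted p = 0.546), from 71.8 ± 17.0 FPKM on the high-fat diet and 60.3 ± 12.6 FPKM on the normal diet. It passed only with limma voom on recovered reads, higher on the high-fat diet (0.50, adjusted p = 0.0293), a setting in which the median of all tested genes was 0.14.

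**Figure D4:**
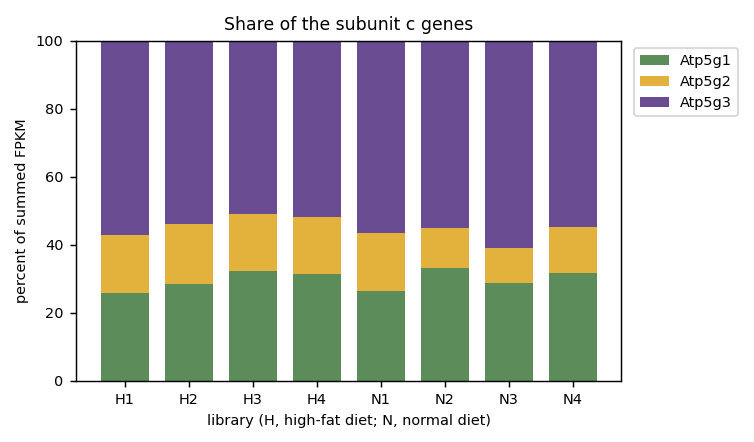
Percent of the summed FPKM of the subunit c genes held by Atp5g1, Atp5g2 and Atp5g3 in each library (bars, high-fat libraries left). The Atp5g2 share is 16.9% to 17.5% in the high-fat libraries and 10.3% to 16.9% in the normal-diet libraries.

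Cytochrome c itself, the soluble carrier between complexes III and IV and a trigger of apoptosis once released, also had a fold change below 0. Cycs had 294, 264, 235 and 238 FPKM in H1 to H4, against 359, 395, 329 and 308 FPKM in N1 to N4. The diets did not overlap, though H1 and N4 stood close together. Cycs had a log2 fold change of -0.43 (SE 0.14, interval -0.74 to -0.12, limma, adjusted p = 0.121), and it was -0.44 without H2. Under quantile normalization it was -0.27 and with limma voom on recovered reads -0.23, below 0 in both and not past the threshold in any setting. Cycs and some short subunits have processed pseudogenes of near-identical sequence, whose reads the counting may have shared. The table held 5 pseudogenes named after members, of Atp5l, Atp5k and Cycs, at 0 to 3.45 FPKM.

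The 6 genes taken by name that encode no subunit were lower, with 1.85 to 26.0 FPKM as their mean over the libraries and a median fold change of 0.03, and none passed. Sdhaf2, which attaches flavin to Sdha, averaged 28.0 ± 5.31 FPKM on the high-fat diet and 24.0 ± 4.496 FPKM on the normal diet. Sdhaf1, which serves the iron-sulfur subunit, averaged 22.7 ± 4.5 FPKM on the high-fat diet and 20.97 ± 4.75 FPKM on the normal diet, with 69.6% of its exon bases inside a gene of the opposite strand. Sdhaf4, which acts on flavinylated Sdha, averaged 10.5 ± 2.15 FPKM on the high-fat diet and 11.4 ± 2.65 FPKM on the normal diet, and Sdhaf3, which like Sdhaf1 serves the iron-sulfur subunit, 1.81 ± 0.422 FPKM on the high-fat diet and 1.89 ± 0.247 FPKM on the normal diet. Atp5s (coupling factor B) averaged 13.3 ± 1.81 FPKM on the high-fat diet and 15.6 ± 3.17 FPKM on the normal diet, and Atp5sl 17.0 ± 4.51 FPKM on the high-fat diet and 13.6 ± 0.960 FPKM on the normal diet.

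By the median deviation of their genes from the 8-library mean, complexes II to V were all lowest in H2, while the highest library was N2 for complexes II and III and H1 for complexes IV and V. H2 was the lowest of the 8 libraries for 31 of the 44 genes (70.5%), against 27.3% of all tested genes. H1, of the same diet, was the highest for 17 (38.6%, against 17.1% of all tested genes), and N2 for 15 (34.1%, against 23.5%). The median deviation of the 44 genes from their 8-library mean was 0.17, -0.36, -0.11 and 0.03 in H1 to H4 and 0.08, 0.17, 0.00 and 0.09 in N1 to N4, on the log2 scale. For all tested genes it was 0.05, -0.13, -0.03 and 0.05 in H1 to H4 and -0.01, 0.08, -0.02 and 0.01 in N1 to N4. Summed over the 44 genes the level was 7959 ± 1180 FPKM on the high-fat diet and 8857 ± 379 FPKM on the normal diet, and the highest sum, 9291 FPKM in H1, and the lowest, 6505 FPKM in H2, were both from the high-fat diet. H2 also had the fewest reads and the lowest mast cell marker sum. Its scaling divisor over recovered reads was the largest of the 8 libraries, 1.023, and a larger divisor gives lower FPKM. The other libraries ran from 0.742 in N2 to 0.931 in H3. The part of any of these in the subunit levels of H2 was not tested.

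**Figure D5:**
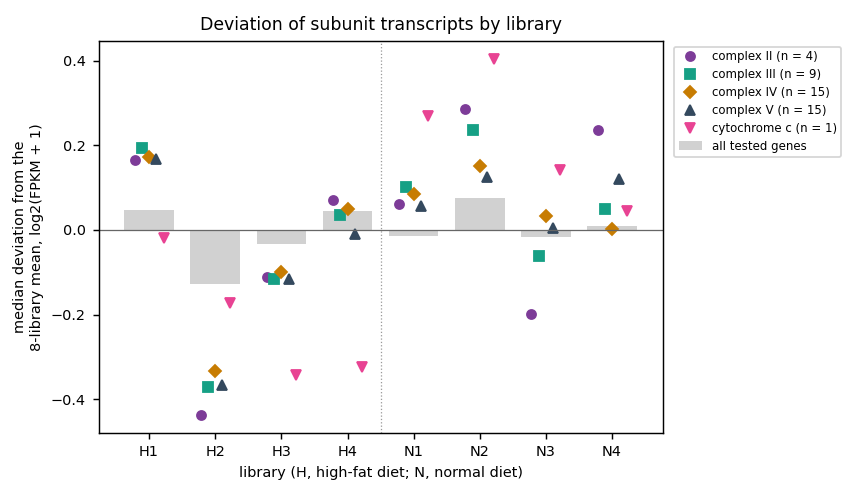
Median deviation from the 8-library mean (log2(FPKM + 1)) of the tested genes of each complex and of cytochrome c in each library, high-fat libraries left of the dotted line; grey bars are the median over all tested genes. Complexes II to V lie together in most libraries, at -0.44 to -0.33 in H2 and 0.16 to 0.19 in H1, while cytochrome c is below 0 in all 4 high-fat libraries and above 0 in all 4 normal-diet libraries.

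Counts over the 44 genes therefore depended on H2 and on the scaling. Without H2, 24 genes were below and 20 above 0, the median was -0.02, and 0 of 44 passed (4.67% of all tested genes). Without both H2 and N2 it was 22 and 22, and 0 passed (3.99% of all tested genes). Under quantile normalization 18 were below and 26 above 0 with a median of 0.03, where the median of all tested genes was 0.00, and 0 passed (3.74% of all tested genes). At equal library medians and with the repeating factor divided out 1 of 44 passed, Uqcr11, beside 4.15% and 4.97% of all tested genes. These settings kept the genes mostly below 0. Equal library medians gave 32 below and 12 above 0, with a median of -0.11. With the factor divided out 34 were below and 10 above 0, with a median of -0.14. With limma voom on recovered reads 21 were below and 23 above 0 with a median of 0.02, where that of all tested genes was 0.14, and 3 of 44 passed (13.1% of all tested genes), Uqcr11 and Cyc1 lower and Atp5g2 higher on the high-fat diet. Complex V kept the lowest median of the 4 complexes in each of these settings. It was -0.12 without H2, -0.13 without H2 and N2, -0.07 under quantile normalization and -0.045 with recovered reads. The median of complex II was above 0 in 3 of these 4 settings and that of complex IV in all 4. Without N3, however, complex II had the lowest median, -0.23, against -0.22 for complex V.

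Genes that work with these complexes were read from lists of the pathway. Of its transporters, cofactor and heme genes, 11 of 13 were tested and 1 passed, lower on the high-fat diet, where 1.88% of all tested genes passed lower. This was Slc25a3, the mitochondrial carrier of the phosphate that complex V joins to ADP, with 1096, 886, 906 and 989 FPKM in H1 to H4, against 1813, 1579, 1151 and 1568 FPKM in N1 to N4. The diets did not overlap, and its log2 fold change was -0.64 (SE 0.16, limma, adjusted p = 0.0430). Of 16 alternative settings 5 also called it, with adjusted p from 0.00424 to 0.132 and fold changes from -0.77 to -0.40, and without H2 its adjusted p was 0.0514. Slc25a5, an ADP/ATP carrier, had a fold change of -0.54 (adjusted p = 0.109, limma), and Coq9, needed for ubiquinone synthesis, had a fold change of 0.87 (adjusted p = 0.0693). Slc25a5 passed with recovered reads only (adjusted p = 0.0217), and Coq9 with recovered reads (1.18, adjusted p = 0.0202) and without N4 (adjusted p = 0.0371). The diets of both genes also did not overlap, which makes 3 of the 11 with Slc25a3, against 11.1% of all tested genes.

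Of the mitochondrially encoded subunits of complexes III to V, 5 of 6 were tested and none passed. All 5 were below 0 in the main test, with a median of -0.37. The median was -0.16 without H2 and -0.13 with recovered reads, and in each of these settings 2 of the 5 were above 0. mt-Co1, the catalytic core of complex IV, had 560, 419, 686 and 704 FPKM in H1 to H4, against 795, 928, 824 and 909 FPKM in N1 to N4. The diets did not overlap, with H2 lowest, and the log2 fold change was -0.57 (adjusted p = 0.0860, limma); it passed at equal library medians only (adjusted p = 0.0499). mt-Cytb, the cytochrome b of complex III, averaged 640.1 ± 176 FPKM on the high-fat diet and 845 ± 111 FPKM on the normal diet. In contrast, mt-Co2, mt-Co3 and mt-Atp6 averaged 8.33 to 12.9 FPKM on either diet. These low genes are among the 5 tested, and the median of -0.37 is the fold change of mt-Co3. Whether the deposited values of mt-Co2, mt-Co3 and mt-Atp6 reflect their RNA levels was not tested. They are therefore not read here as scarce transcripts.

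Among 36 nuclear subunits of complex I, 27 were below and 9 above 0 with a median of -0.10, which was 0.00 without H2, and none passed. The 2 most expressed were Ndufa13 and Ndufa1. Ndufa13 averaged 258 ± 43.5 FPKM on the high-fat diet and 298 ± 63.6 FPKM on the normal diet. Ndufa1 averaged 218 ± 34.4 FPKM on the high-fat diet and 296 ± 31.3 FPKM on the normal diet (-0.45, limma, adjusted p = 0.135, no overlap). With recovered reads the adjusted p of Ndufa1 was 0.0379 (limma voom), and 2 of the 36 passed, against 13.1% of all tested genes. Lists of assembly factors and other associated proteins gave medians of 0.11 for complex III (7 tested), 0.05 for complex IV (22) and 0.11 for complex V (6). In the main test 0 passed in each. With recovered reads 2 of complex IV and 1 of complex V passed, beside 13.1% of all tested genes. Uqcc2 and Fdx1l were the most expressed in the complex III list, Coa5 and Higd1a in that of complex IV, and Atpif1 and Tmem242 in that of complex V. Not all of these are assembly factors in the strict sense. Their fold changes ran from -0.23 to 0.22. Of 15 regulators of respiratory genes 13 were tested, 10 were below 0 and none passed. Gabpb1, the partner subunit of Gabpa in GABP, averaged 71.7 ± 8.59 FPKM on the high-fat diet and 104 ± 26.7 FPKM on the normal diet (-0.51, limma, adjusted p = 0.142), and it passed with the repeating factor divided out and with recovered reads. Gabpa stood at 11.6 ± 2.10 FPKM on the high-fat diet and 11.9 ± 2.28 FPKM on the normal diet. The other most expressed regulator, Myc, averaged 68.0 ± 12.9 FPKM on the high-fat diet and 75.5 ± 16.3 FPKM on the normal diet.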

How the data were processed

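RNA of 8 libraries was analysed, 4 per diet. Trizol extraction was followed by full-length cDNA synthesis (SMART-Seq HT) and TruePrep library construction with a transposase, per the labels' protocols; such libraries do not mark the strand. HISAT2, Cufflinks and mm10 are named in the submitters' processing notes, while versions and annotation were not given in the sources used here. Per gene and library the authors deposited 1 FPKM value, per the file headers. Because 14605 of the 39527 genes hold values below 0, the unit was recorded as a score for the deposited columns; no member is among them. The deposited values also carry a factor that repeats every 10 rows (0.863 to 1.18) and adds -0.08 to 0.09 to the log2 fold change of a gene. The main test uses the values with it, an alternative without it. Whole reads were recovered for 100% of 24107 genes above 0 and used in an alternative only (limma voom, library totals as size). They are the smallest whole numbers that fit the values of a gene, so its true reads may be a multiple of them. Relative to those totals the divisor of the deposited scaling was larger on the high-fat diet by 0.16 on the log2 scale, which lowers the high-fat values.

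Genes at 1 FPKM or more in at least 4 libraries and with no value below 0 (11483) were tested on log2(FPKM + 1) with limma 3.58.1 in R 4.3.3 (eBayes with trend and robust options, diet as the only term, two-sided, Benjamini-Hochberg at 0.05). A positive fold change means a higher level on the high-fat diet; the pseudocount understates changes of low genes. The code was tested on simulated data. Alternatives were a pseudocount of 0.1, no filter, quantile normalization, equal library medians, the factor divided out, recovered reads, the replicate number as a block, each library left out, and H2 and N2 left out together. Named are all subunits of complex II, cytochrome c, called members, and in complexes III to V the 4 most expressed members, the 2 largest fold changes in each direction and whole isoform sets, and for each pathway list the called genes or else the 2 most expressed. Other genes given by name were chosen after their values were seen. The members and lists were chosen with earlier results of these data known. Coordinates and exon overlaps come from GENCODE M21 and promoters from RefSeq, with a window of 250 bases. The columns of the table all belong to the 8 libraries.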

Additional observations from a re-analysis of the deposited data

Results flagged for a closer look

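Single libraries far from the other 3 of their diet were found in 8 of 106 groups of 4 libraries (Dixon's criterion at 95%, the gap to the nearest library over the range of the group). Chance gives about 1 in 20 such groups. Of the tested subunits, 3 concerned N3: Sdhd (51.7 FPKM, the other normal-diet libraries 77.7 to 80.5), Atp5f1 (120.4 FPKM, the others 164 to 169) and Atp5k (153 FPKM, the others 99.5 to 107). Cox7b in N1 was low at 142 FPKM (the others 165 to 167). Cox4i2 in N2 was high at 7.12 FPKM (the others 1.86 to 2.57). Atp5l in H4 was low at 185 FPKM (the other high-fat libraries 207 to 210.0). The last 2 rest on few reads in genes that were not tested, Cox7b2 in H2 at 2.02 FPKM (the others 0.716 to 0.873) and Cox6a2 in H1 at 0.370 FPKM (the others listed at 0). H2, the lowest library for most subunits, stood apart by this criterion in 1 group.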

How the results depend on the processing

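No complex had a called member in the main test, and complexes II and IV and cytochrome c had 0 in all 16 alternatives. Complex III had 1 called at equal library medians and 1 with the factor divided out (Uqcr11 in both), and with recovered reads 2 (Uqcr11 and Cyc1), all lower on the high-fat diet. Complex V had 1 with recovered reads (Atp5g2, higher), and its median then moved to -0.045. The fold change of cytochrome c moved to -0.27 under quantile normalization and -0.23 with recovered reads. Over all tested genes the calls went to 130 with no filter, 571 with the factor divided out (185 higher, 386 lower), 1505 with recovered reads (1117 higher, 388 lower) and 129 to 536 with 1 library left out (without H1 200, H2 536, H3 129, H4 129, N1 182, N2 176, N3 279 and N4 305); quantile normalization gave 226 higher and 204 lower, against 112 higher and 216 lower in the main test. The cause was not tested. Leaving out 1 library gave medians of -0.23 to -0.02 in complex II, -0.14 to -0.02 in complex III, -0.14 to 0.01 in complex IV, -0.31 to -0.12 in complex V and -0.50 to -0.37 for cytochrome c. With the replicate number as a block, 191 genes were called and no member. The labels do not say that equal numbers pair libraries, and the deviations of same-numbered libraries correlated at -0.25 to 0.08. Of 800 member values under the alternatives 83 had another sign than in the main test, none beyond its standard error in both. Tested isoforms under 10 FPKM rested on 1 to 98 recovered reads per library, which limits them.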

Other observations

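The spread of subunit transcripts within a diet was larger on the high-fat diet. Over the 40 subunit and cytochrome c genes at 10 FPKM or more, the median coefficient of variation between libraries was 18.4% on the high-fat diet and 10.96% on the normal diet, and it was larger on the high-fat diet for 30 genes (75%), against 50.1% of all tested genes, for which the medians were 19.2% on the high-fat diet and 19.6% on the normal diet. Without H2 the high-fat median was 13.3%. In complex V, Atp5h had an SD of 35.1 FPKM around 229.7 FPKM on the high-fat diet, against 7.26 FPKM around 267 FPKM on the normal diet, and Atp5j2 an SD of 47.2 FPKM around 201 FPKM on the high-fat diet, against 8.26 FPKM around 201 FPKM on the normal diet. Atp5l went the other way, with an SD of 11.9 around 202 FPKM on the high-fat diet and 28.4 around 271 FPKM on the normal diet. The difference in spread was not tested.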
